A study of Homo sapiens with 12 samples.

Results

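The genes described here encode the proteins of the cytosolic ribosome, the particle that translates messenger RNA. They were chosen by name alone: RPSA, and every gene whose symbol is RPS or RPL followed by a number, or by P0, P1 or P2, with an optional final A, X or L. This rule took 80 of the 29696 genes in the expression table, 32 of the small (40S) subunit and 48 of the large (60S) subunit, and left out pseudogenes and the S6 kinases. They were measured in A375, an established human melanoma cell line, after lentiviral short hairpin RNA against ALKBH5 (shALKBH5) or with a control hairpin (shCtrl). ALKBH5 is an enzyme that removes N6-methyladenosine (m6A), a methyl mark on adenosines of RNA, and the comparison asked which transcripts and which m6A peaks differed once it was depleted. The labels call the shCtrl cells wild type and the shALKBH5 cells ALKBH5 knockdown, and which of the study's hairpins was used for sequencing is not given in the sources used here. Each of the 4 groups held 3 libraries: poly(A) RNA before immunoprecipitation (input) and after capture with an m6A antibody (IP), for each kind of cell. The study's methods say in general that experiments were repeated independently, but the labels do not say whether the libraries of a group came from separate cultures, and p-values measure the spread between these libraries, which may be technical.

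Each ribosome carries a single copy of nearly every ribosomal protein, and the small subunit decodes the message while the large subunit joins amino acids. Messenger RNAs of ribosomal proteins are among the most abundant in growing cells. Most begin with a cytosine followed by an unbroken run of pyrimidines, the 5' terminal oligopyrimidine (TOP) motif, through which LARP1 and mTOR set their translation together. Many have scattered processed pseudogenes with near-identical sequence, and several have a diverged paralogue with an L at the end of its symbol.

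The start of the transcript is shown for the members on which the results turn. The windows run from 10 bases before to 20 bases from the annotated start, are taken from RefSeq (GRCh38.p14), and are written 5' to 3' on the gene's strand, with capitals marking a C at the start and the unbroken pyrimidines after it where this run reaches 5 bases. The first set holds members with the highest fold changes.
RPL26 (chr17:8383174-8383203, minus strand): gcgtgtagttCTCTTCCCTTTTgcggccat
RPL31 (chr2:101002279-101002308, plus strand): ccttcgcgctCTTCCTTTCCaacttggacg
RPL34 (chr4:108620566-108620595, plus strand, the first of 2 annotated starts): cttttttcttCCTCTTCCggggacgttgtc
RPL17 (chr18:49492446-49492475, minus strand): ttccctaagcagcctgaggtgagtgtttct
The second set holds members that were lower.
RPS10 (chr6:34426050-34426079, minus strand): catgctccttCCTTTCCagccccggtaccg
RPS23 (chr5:82278335-82278364, minus strand): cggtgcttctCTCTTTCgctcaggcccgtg
RPL13A (chr19:49487598-49487627, plus strand): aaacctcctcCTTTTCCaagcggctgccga
RPL3 (chr22:39319604-39319633, minus strand): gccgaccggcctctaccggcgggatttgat
The third set holds a member and its paralogue, which moved in opposite directions.
RPS27 (chr1:153990752-153990781, plus strand): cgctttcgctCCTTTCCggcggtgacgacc
RPS27L (chr15:63157458-63157487, minus strand): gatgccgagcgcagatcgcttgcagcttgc

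The reference table held 63 of the 80 members. A start run of this kind was found in 46 of the 63 (73.0%), against 5.14% of the 27305 genes in the table. RPL3 stops just short of the rule with a run of 4 bases. The annotated start of RPL17 and that of RPS27L do not begin with a pyrimidine. Of the 46 members with a run, 39 were higher and 3 lower in shALKBH5 by the test described next, with a median log2 fold change of 0.30, and of the 17 without one 11 were higher and 2 lower, with a median of 0.24. Of all tested members 77.2% were higher and 10.1% lower, and of all tested genes 34.7% and 26.2%. In the whole 300-base window, from 250 bases before to 50 after the start, CCGGAAG was found on either strand in 36.5% of members and in 12.2% of all genes. These are letter matches and not measured sites.

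ALKBH5, the targeted gene, had 3.39, 3.92 and 3.12 FPKM (fragments per kilobase of transcript, scaled to the mapped fragments of the library) in the shALKBH5 libraries and 19.3, 17.8 and 17.6 in the shCtrl libraries. The groups were far apart, with a log2 fold change of -2.36 (SE 0.09, limma adjusted p = 1.28e-06). The melanoma markers SOX10 and S100B were present, MITF was near 1 FPKM, and TYR and DCT were at or near 0. Over the 10 melanocyte and melanoma markers in the table (of 11 listed) the summed level ran from 270.5 to 274 FPKM in shALKBH5 and from 219 to 229 in shCtrl, and over the 5 dedifferentiation markers from 478 to 500 and from 569 to 599. A single marker averaging 182 FPKM made up most of the melanocyte and melanoma sum. Of the 6 tested markers of that set 4 (66.7%) were higher and 1 (16.7%) lower, against 34.7% and 26.2% of all tested genes. Of the immune markers CD68 and CD14 were in the table, with a sum from 38.3 to 42.1 FPKM in shALKBH5 and from 14.8 to 17.3 in shCtrl that was nearly all CD68, and PTPRC and CD3E had no entry. The 5 fibroblast markers summed to 3.18 to 4.31 and 2.20 to 2.35 FPKM, the 2 keratinocyte markers in the table (of 4 listed) to 10.7 to 11.5 and 8.90 to 9.53, and the 3 endothelial markers to under 1 FPKM in every library. The part of these differences in the results below was not tested. Library depth is unknown, since only FPKM values were given. Summed FPKM ran from 212760 to 223231 per library. No library was a copy of another, with at most 0.123% of tested genes equal in any pair.

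Most ribosomal protein mRNAs were higher in shALKBH5, by a similar and modest amount, while a few were clearly lower. Of the 79 members averaging 0.5 FPKM or more, 61 (77.2%) were higher and 8 (10.1%) lower at an adjusted p under 0.05 (limma on log2(FPKM + 0.1), adjusted by Benjamini-Hochberg over all 12985 tested genes). Over all tested genes 34.7% were higher and 26.2% lower. The median log2 fold change of members was 0.28, with quartiles of 0.12 and 0.36, against 0.09 over all tested genes, with quartiles of -0.28 and 0.42. Among the other 266 genes averaging 100 FPKM or more, 44.7% were higher, 32.7% lower, and the median was 0.09. In 65 members all 3 shALKBH5 libraries lay above all 3 shCtrl libraries, and in 8 all lay below, against 38.0% and 29.0% of all tested genes. The remaining member, RPL3L, was listed at 0 in 5 libraries and at 0.113 FPKM in shCtrl replicate 1, and was not tested. For any single gene an exact permutation test of 3 against 3 libraries cannot give a two-sided p below 0.1, so calls rest on the fit across all genes.

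The counts depended on how libraries were put on a common scale. With each library rescaled by its median ratio over tested genes, 50 members were higher and 10 lower, where 29.1% of all tested genes were higher and 30.1% lower. With each library divided by its own summed ribosomal protein FPKM, a scale on which only the balance among members remains, 41 were higher and 14 lower (74.5% of calls higher against 88.4% as deposited), and the median of all tested genes moved from 0.09 to -0.08, with 22.2% of them higher and 35.4% lower. The 8 lower members were lower on every scale tried.

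**Figure D1:**
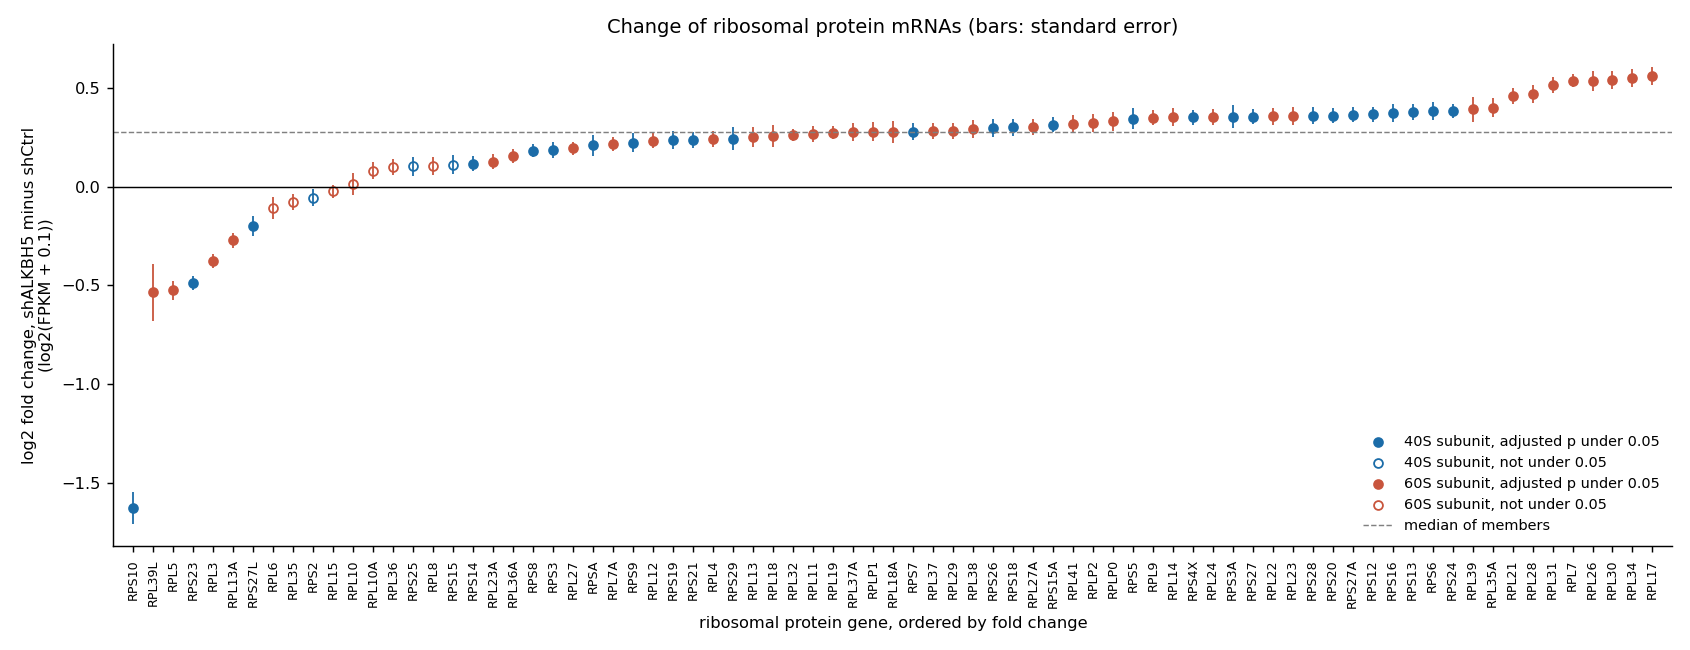
Log2 fold change (shALKBH5 minus shCtrl, log2(FPKM + 0.1)) of 77 of the 79 tested members, with its standard error, in order of size and coloured by subunit; filled points have a limma adjusted p under 0.05 and the dashed line is the members' median of 0.28. Most points lie in a narrow band above 0, and RPS10 stands far below the rest at -1.63.

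As a share of all summed FPKM, which is a length-normalised share of transcripts, the members took 14.4%, 14.5% and 14.3% in the shALKBH5 libraries and 13.1%, 12.9% and 13.4% in the shCtrl libraries. The groups did not overlap, at 14.4% ± 0.07 and 13.1% ± 0.25 (SD, n = 3). The 40S members rose from 5.6% ± 0.11 to 6.0% ± 0.03 and the 60S members from 7.53% ± 0.14 to 8.39% ± 0.04 (SD, n = 3), values described without a test. Among the shCtrl libraries replicate 2 had the lowest member share, and 52 of the 79 members were lowest in it, where 33.2% of all tested genes were. Without it the difference in share was 1.14 percentage points, against 1.27 with all libraries.

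**Figure D2:**
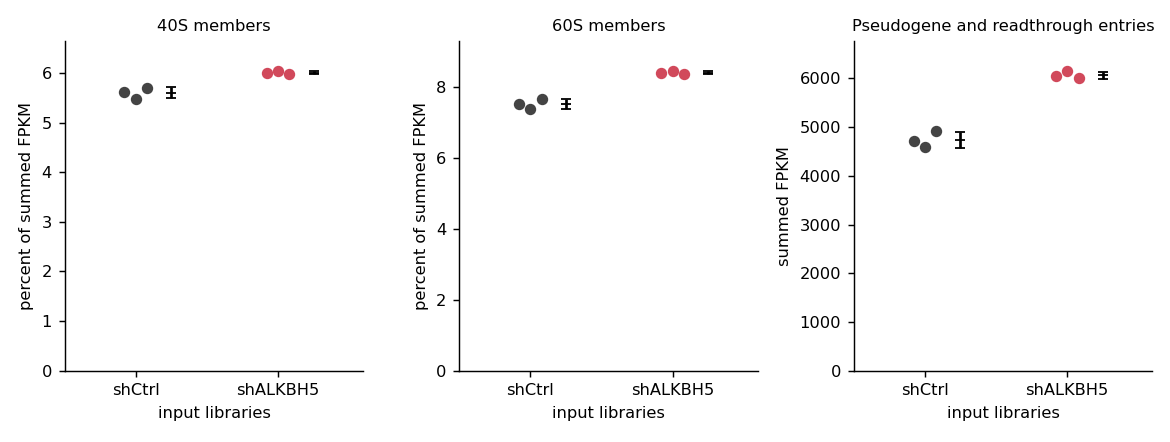
Percent of summed FPKM taken by 40S and by 60S members, and summed FPKM of their pseudogene and readthrough entries, in each of the 3 input libraries of shCtrl and shALKBH5 (points), with the mean and SD beside them. In all 3 panels every shALKBH5 library lies above every shCtrl library, by a margin that is small beside the level for the members.

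Both subunits took part in similar proportions. Among 32 small subunit members 25 were higher and 4 lower, with a median log2 fold change of 0.26. Among 47 tested large subunit members 36 were higher and 4 lower, with a median of 0.28. The 6 highest fold changes were all of the large subunit.

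RPL17, which sits at the mouth of the tunnel through which the growing chain leaves the ribosome, had 220.4, 223.5 and 215.3 FPKM in shALKBH5 and 139.7, 151.9 and 155.6 in shCtrl. Its log2 fold change was the highest of the members, at 0.56 (SE 0.05, limma adjusted p = 4.57e-05). RPL34 had 74.8, 76.4 and 71.4 FPKM in shALKBH5 against 50.1, 48.9 and 52.9. RPL30 had 228, 234 and 229 against 154, 153 and 168. In both, the groups were well apart, with log2 fold changes of 0.55 and 0.54. RPL26, another protein of the tunnel exit and a regulator of p53 translation, had 389, 389 and 367 FPKM against 245, 273 and 271 (log2 fold change 0.54, SE 0.05). RPL7 had 239, 243 and 245 against 169, 168 and 163, the smallest error among the 6, at 0.54 (SE 0.03). RPL31, also at the tunnel exit, had 89.9, 91.0 and 88.8 FPKM against 60.5, 62.0 and 66.0, a log2 fold change of 0.52 (SE 0.04). Of 7 proteins placed at the tunnel exit, a grouping made after the values were seen, 6 were higher (85.7%, against 77.2% of all tested members), with a median of 0.39, and RPL35 was not called, at -0.08 (limma adjusted p = 0.133). The smallest of these rises, RPL23A at 0.13, lost its call under median ratio scaling, with library sums made equal and on the members' own sum. RPL35 was called lower on each of those scales.

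The stalk that recruits elongation factors is built from RPLP0, RPLP1 and RPLP2. RPLP0 had 935, 938 and 938 FPKM in shALKBH5 and 772, 695 and 769 in shCtrl. The log2 fold changes of RPLP0, RPLP1 and RPLP2 were 0.33, 0.28 and 0.32, and all 3 were higher. Among small subunit proteins, RPS6, the substrate of the S6 kinases, had 939.7, 983.6 and 925.1 FPKM against 693, 739.6 and 751.2 (log2 fold change 0.38, SE 0.04, limma adjusted p = 2.19e-04). RPS27A, which is made as a fusion with ubiquitin, rose by 0.37 and RPS4X, encoded on the X chromosome, by 0.35. RPS13 rose by 0.38. RPS3, a protein of the mRNA entry channel with a second role in DNA repair, rose by 0.19, and RPSA, which is also the laminin receptor, by 0.21. These last 2 changes lost significance under median ratio scaling, at 0.11 and 0.13 (limma adjusted p = 0.126 and 0.138). RPL22 rose by 0.36, and RPL37 and RPL37A by 0.28 each. RPL4, RPL13 and RPS9 were higher by 0.24, 0.25 and 0.22, and RPS9 was not called under median ratio scaling, at 0.15 (adjusted p = 0.0788). On the members' own sum none of the 3 was called, at 0.07, 0.08 and 0.05 (adjusted p = 0.161, 0.0822 and 0.267). RPS14 was the smallest change called, at 0.12 (SE 0.04, limma adjusted p = 0.0297), and it was not called without any one of the shALKBH5 libraries in turn and turned to -0.06 on the scale of the members' own sum.

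Member levels covered a wide range. RPL41, the shortest ribosomal protein, was the highest at 1886, 1994 and 1973 FPKM in shALKBH5 and 1591, 1484 and 1621 in shCtrl, and rose by 0.32 on the log2 scale. RPS2 came next and did not differ beyond its spread, with 1470, 1462 and 1470 FPKM against 1591, 1445 and 1544. RPL13A was the third. The lowest tested members were RPL39L, RPS27L and RPS29. RPS29, a zinc-binding protein of the small subunit, had 20.5, 20.1 and 19.0 FPKM against 17.2, 15.6 and 17.6 (log2 fold change 0.24, limma adjusted p = 0.0085), and was not called under median ratio scaling, at 0.17 (adjusted p = 0.0658).

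RPS10 departed most from the other members. RPS10 (ENSG00000124614, chr6:34417454-34426069 in the authors' table) lies in the head of the small subunit, where the ligase ZNF598 ubiquitylates it when ribosomes collide, and its start sequence is given above. It had 81.3, 99.6 and 90.9 FPKM in shALKBH5 and 296, 281 and 262 in shCtrl, so that the lowest control library was more than any knockdown library by a wide margin. Its log2 fold change was -1.63 (SE 0.08, limma adjusted p = 3.69e-06), a fall of the mean from 279 to 90.6 FPKM. A readthrough entry that joins RPS10 to NUDT3 had 17.4, 4.29 and 15.2 FPKM against 18.3, 10.0 and 29.5, with overlapping groups, and the pseudogene entry RPS10P3 had 2.39, 2.54 and 1.65 against 6.03, 6.26 and 8.06. All 6 entries related to RPS10 (5 pseudogenes and 1 readthrough) summed to 20.2, 7.02 and 17.2 FPKM in shALKBH5 and 24.7, 16.5 and 38.0 in shCtrl.

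RPL13A (ENSG00000142541, chr19:49487554-49492308) is known for a role outside the ribosome in silencing inflammatory messages. It had 1040.4, 1034 and 1036 FPKM against 1278, 1201 and 1279, a fall by 0.27 on the log2 scale (SE 0.04, limma adjusted p = 5.13e-04). Every knockdown library lay below every control library.

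RPL5 and RPL11 form a particle with 5S ribosomal RNA that binds MDM2 and so restrains the loss of p53. They moved in opposite directions. RPL5 (ENSG00000122406, chr1:92832013-92841924) had 76.3, 78.4 and 73.5 FPKM in shALKBH5 and 102.8, 111.7 and 114.0 in shCtrl (log2 fold change -0.52, SE 0.05, limma adjusted p = 8.02e-05). RPL11 had 504, 522 and 483 against 409, 416 and 429, a log2 fold change of 0.27 (limma adjusted p = 9.06e-04), which on the scale of the members' own sum was 0.09 and not called (adjusted p = 0.0686).

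RPS23 (ENSG00000186468, chr5:82273320-82278396), a protein of the decoding centre, had 125, 129 and 125 FPKM in shALKBH5 and 177, 173 and 181 in shCtrl. Its log2 fold change was -0.49 (SE 0.03, limma adjusted p = 2.03e-05). RPL3 (ENSG00000100316, chr22:39312882-39320389), which reaches into the peptidyl transferase centre, had 383, 385 and 378 against 498, 480 and 510 (log2 fold change -0.38, SE 0.03, limma adjusted p = 7.33e-05). In both, every knockdown library lay below every control library.

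**Figure D3:**
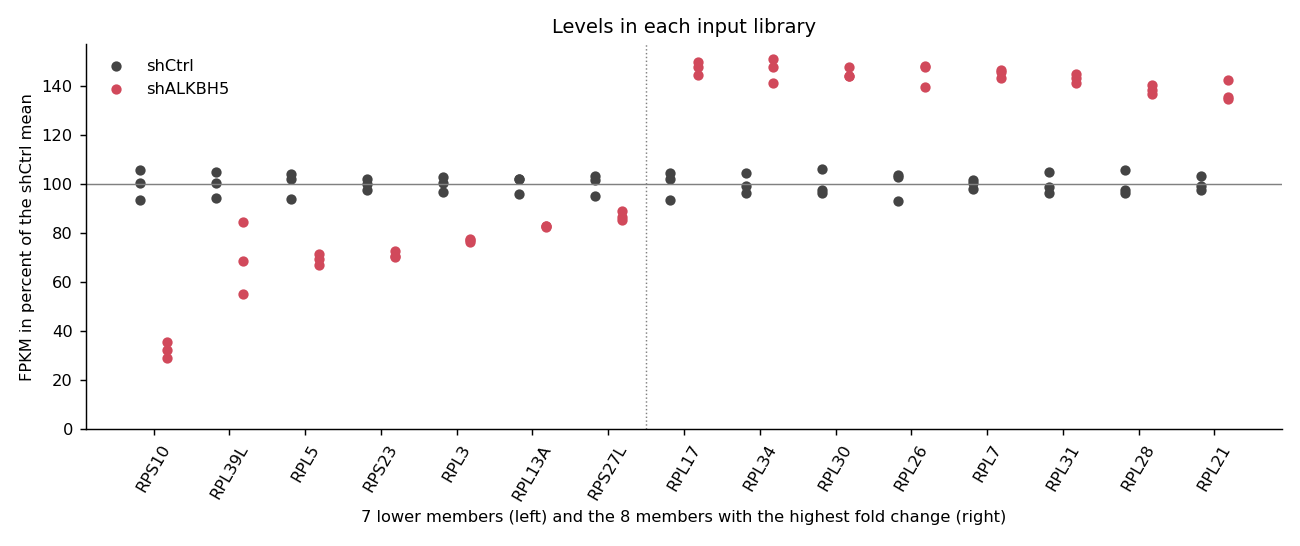
FPKM in each input library, in percent of the gene's shCtrl mean, for 7 of the 8 lower members and for the 8 members with the highest fold changes; grey points are the 3 shCtrl and red points the 3 shALKBH5 libraries. No pair of groups overlaps, and RPS10, whose mean fell by 67.6%, lies farthest from its controls.

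Members that departed from the rest of the ribosome were read against the members' median of 0.28. Using a limit of 0.25 chosen after the values were seen, 61 of the 79 lay within it, 5 lay above (RPL17, RPL34, RPL30, RPL26 and RPL7) and 13 below. Without shCtrl replicate 1 only 2 lay above, and with pseudogene and readthrough entries added 6 lay above and 10 below. The 13 were the 8 lower members with RPL6, RPL35, RPS2, RPL15 and RPL10. In these last 5 the groups overlapped and none passed the test as deposited. Under median ratio scaling RPL6 and RPL35 were called lower, at -0.18 and -0.15 (limma adjusted p = 0.0208 and 0.0454). With library sums made equal RPL35 and RPS2 were, at -0.12 and -0.097 (limma adjusted p = 0.0140 and 0.0327). RPL10, which is added late in assembly of the large subunit, had 360, 359 and 370 FPKM in shALKBH5 and 382, 329 and 369 in shCtrl, a log2 fold change of 0.01 that was negative under 3 other scalings. The other 5 members not called, RPS15, RPL8, RPS25, RPL36 and RPL10A, had log2 fold changes between 0.08 and 0.11 with adjusted p from 0.0733 to 0.132. Dividing by the members' own sum lowers every gene by about the same amount (RPL10 from 0.01 to -0.16 and RPL10A from 0.08 to -0.09), so the lower calls of RPL6, RPL35, RPS2, RPL15, RPL10 and RPL10A on that scale restate their distance from the other members.

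The 2 paralogues among the tested members, RPL39L and RPS27L, were lower while RPL39 and RPS27 were higher. RPL39L, a testis-enriched form of RPL39, had 3.46, 4.26 and 2.77 FPKM in shALKBH5 and 5.07, 4.76 and 5.30 in shCtrl (log2 fold change -0.54, SE 0.14, limma adjusted p = 0.0138). RPL39 itself had 280.5, 289.9 and 288.9 against 231.1, 196.3 and 229.1, a log2 fold change of 0.39 (SE 0.06). RPS27L, a target of p53, had 9.91, 9.76 and 10.17 FPKM against 11.8, 10.9 and 11.6 (log2 fold change -0.20, SE 0.05, limma adjusted p = 0.0118). RPS27 had 822, 831 and 832 against 649, 623 and 671, a log2 fold change of 0.36 (SE 0.04). RPL3 fell as given above and RPL3L, a muscle form, was all but absent. RPL10L had no entry in the table. Whether a paralogue and its parent differed in response was not tested beyond each gene's own fit.

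Reads of ribosomal protein genes can be split with pseudogenes. The table held 434 pseudogene and 3 readthrough entries named for 71 of the members, with a summed 6053, 6147 and 6006 FPKM in shALKBH5 and 4710.4, 4596 and 4918 in shCtrl, higher in every knockdown library. For RPL21, the entry RPL21P75 had 184, 241 and 156 FPKM in shALKBH5 and 15.96, 86.02 and 90.03 in shCtrl, beside 242, 254 and 241 against 177, 174 and 185 for RPL21. When each member was summed with its own pseudogene and readthrough entries, 64 were higher and the same 8 lower. The calls that changed were those of RPL6, RPL15 and RPS15, which became higher, and RPL15 moved from -0.02 to 0.47 (limma adjusted p = 0.00822). RPL23A moved from 0.13 to 0.30 and RPS26 from 0.30 to 0.51, without a change of call. For RPL9, RPL21 and RPS7 the related entries summed to more than the member itself, at 203%, 155% and 142% of it in shALKBH5 and 228%, 133% and 135% in shCtrl. For RPL15 this held only in shALKBH5, at 121%, against 58.4% in shCtrl. The levels of all these genes are uncertain, since reads could be divided between near-identical copies.

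Genes that work with the ribosomal proteins were read from lists of fixed membership, by count and without a set test, and are to be read against the 34.7% of all tested genes that were higher and the 26.2% that were lower, or the 29.1% and 30.1% under median ratio scaling and the 22.2% and 35.4% on the members' own sum. Rescaling moved the calls of all genes in the same direction as those of the lists. Of 7 ribosome genes whose names fall outside the rule, 5 were higher and 1 lower (median log2 fold change 0.24), and 3 and 2 on the scale of the members' own sum. Without shALKBH5 replicate 1, without the trend, with no filter and under median ratio scaling 3 were higher. RPL26L1, a paralogue of RPL26, rose by 0.45, RACK1, the scaffold of the small subunit, rose by 0.14, and RPL22L1, the paralogue of RPL22, had 13.7, 13.7 and 12.7 FPKM against 21.1, 20.6 and 21.1 (log2 fold change -0.65, SE 0.05). Of 85 ribosome biogenesis genes 53 (62.4%) were higher and 5 (5.88%) lower, with a median of 0.31. The counts were 42 and 10 under median ratio scaling and 33 and 15 on the members' own sum. GRWD1, a chaperone of RPL3, rose by 1.06 and RRN3, which recruits RNA polymerase I, by 0.97, while URB1 fell by 0.92 and SDAD1 fell by 0.74.

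Of 39 translation factors 17 (43.6%) were higher and 8 (20.5%) lower (median 0.11). The counts were 13 and 11 under median ratio scaling and 9 and 15 on the members' own sum. The 2 highest called were EIF2S3 of eIF2, which rose by 0.82, and EIF3H of eIF3, which rose by 0.72. The 2 lowest were EIF2S2 of eIF2, which fell by 1.15, and EIF3G of eIF3, which fell by 0.70. Being picked as extremes, they do not show how the other subunits moved. Of 18 regulators of TOP mRNAs and of MYC function 7 (38.9%) were higher and 6 (33.3%) lower (median 0.11), shares near those of all tested genes. The counts were 5 and 6 under median ratio scaling and 4 and 8 on the members' own sum. EIF4EBP2, a repressor of cap-dependent translation, had 12.2, 12.5 and 12.4 FPKM against 3.51, 4.05 and 4.07 (log2 fold change 1.65, SE 0.07), and MAX, the partner of MYC, rose by 0.56. RHEB, the activator of mTOR, fell by 0.85 and MXI1 fell by 0.47. Of 18 genes of the ribosomal stress list 6 (33.3%) were higher and 3 (16.7%) lower (median 0.04), no more than among all tested genes, and 5 were lower without shCtrl replicate 1. The counts were 4 and 4 under median ratio scaling and 2 and 6 on the members' own sum. PELO, which splits stalled ribosomes, rose by 0.70, and LTN1 by 0.70. HBS1L, the partner of PELO, fell by 0.69. ZNF598, the ligase that modifies RPS10, had 4.68, 4.99 and 4.73 FPKM against 11.4, 10.2 and 11.4, with groups far apart (log2 fold change -1.18, SE 0.06, limma adjusted p = 5.54e-06).

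The m6A peaks came as 1 list per group, made by the authors from IP against input, so that peak values have no replicates. Among tested members 62 of 79 (78.5%) had at least 1 peak in the shALKBH5 list and 64 (81.0%) in the shCtrl list, against 87.1% and 86.5% of all tested genes and 76.3% and 77.4% of the other genes averaging 100 FPKM or more. The lists held 150 and 152 member peaks. Of all 80 members, 62 had a peak in both lists and 14 in neither, among them RPLP0, RPLP2, RPS2, RPS12, RPL3 and RPL17. By position rather than by name, RPL17 gained a peak in both lists and RPL3 in the shCtrl list.

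Member peaks were weakly enriched. The median fold enrichment (IP over input) was 2.55 in shALKBH5 and 2.48 in shCtrl, against 5.31 and 5.25 over all peaks. Taking each gene's best peak, the medians were 3.75 and 3.52 for members, 3.32 and 3.36 for the other genes averaging 100 FPKM or more, and 7.59 and 7.66 for all other tested genes. Peaks in 3' UTRs were 65.3% and 61.8% of member peaks, against 45.5% and 46.2% of all peaks, and 5' UTR peaks were 17.3% and 20.4%, against 16.6% and 17.0%. Member peaks lay only in UTRs, coding exons, introns or no given region, while part of all peaks lay in other kinds of region. The shares of all peaks are therefore on a wider base and read low beside those of members. Some member peaks are counted more than once, since 14 and 16 of them overlap another peak of the same list.

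The peaks of highest fold enrichment sat in a few members. The authors' caller gave some of them far less extreme p-values than less enriched peaks. In shCtrl, log10 p was -14.6 for RPS29 at 30.6, -4.39 for RPL31 at 19.2 and -3.69 for RPL3L at 14. In shALKBH5 it was -206 for RPL37 at 15.0 and -32800 for a 3' UTR peak of RPL41 at 4.13. RPS29 had the highest value, 30.6 in a 5' UTR peak of the shCtrl list (chr14:49598068-49598957), where the overlapping shALKBH5 peak had 9.55. An intronic peak of RPS9 (chr19:54229413-54230213) had 26.9 in shALKBH5 and 15.3 in shCtrl. RPS13 had a 5' UTR peak (chr11:17077417-17077715) at 19.6 in shALKBH5 and 8.30 in shCtrl. How many reads lie behind these values is not given in the sources used here. RPL31 had a 3' UTR peak at 12.9 in shALKBH5 and 19.2 in shCtrl. The highest peaks of RPL37A, RPL37 and RPL7 had 16.6, 15.0 and 12.8. RPL3L had a peak at 14 in shCtrl, whose overlapping shALKBH5 peak had 6.12, and a separate shALKBH5 peak at 12.2, although its mRNA was listed at 0 in 5 of 6 input libraries.

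When peaks of the same gene that overlapped between the lists were paired, 122 pairs in 62 members resulted. Enrichment was higher in shALKBH5 in 32 pairs (26.2%) and lower in 89, with a median log2 ratio of -0.11 and quartiles of -0.20 and 0.02. Over 22756 pairs of all tested genes 45.0% were higher, with a median of -0.05 and quartiles of -0.33 and 0.26. Member pairs thus leaned further to lower enrichment but were less spread, and 4.92% of them differed by more than 2-fold against 13.3% of all pairs. Pairs of other abundant genes were not set apart, so whether they share these traits was not tested. No test was possible on 1 list per group. The largest differences were a 3' UTR peak of RPS24 (11 against 2.43) and the 5' UTR peak of RPS29. Both depend on which overlapping peaks were paired. The RPS24 peak in shALKBH5 also overlapped a shCtrl peak at 5.56, and a further 3' UTR peak of RPS24 in shCtrl, at 10.2, lay close by. The RPS29 peak in shALKBH5 also overlapped a shCtrl peak at 3.62.

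The authors' table of differential peaks lists peaks with an unadjusted p under 0.05 from their caller. It held 42 peaks in 33 members, 35 decreased and 7 increased in shALKBH5. Of tested members 41.8% were in the table, against 33.2% of all tested genes and 29.7% of the other genes averaging 100 FPKM or more. A decreased peak was listed for 38.0% of tested members, against 22.4% of all tested genes and 24.4% of those other abundant genes, and an increased peak for 8.86%, against 13.5% of all tested genes. Among its member peaks 83.3% were decreased, against 62.2% of all the peaks listed. Counted by gene, 30 of the 33 listed members had a decreased peak. So had 65 of the 79 listed other abundant genes and 2910 of the 4309 listed tested genes, so abundant genes shared much of this lean. The median size of a listed change, without its sign, was 0.229 on the log2 scale for member peaks and 0.435 for all listed peaks. An FDR under 0.05 in the table was met by 37 of the 42 member peaks, a share of 88.1% against 55.3% of all listed peaks, and 33 of the 37 were decreased. An absolute log2 fold change above 1 was met by 3 (7.14%, against 16.8%). These shares of peaks were not worked out for other abundant genes alone.

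The largest decrease was in RPS10, at a 5' UTR peak (chr6:34425635-34425694) with a log2 fold change of -1.17 (FDR = 0.049 in the authors' table). This peak was called at 3.87 in the shCtrl list and had no counterpart in the shALKBH5 list. The main 5' UTR peak of RPS10 (chr6:34425754-34426069) was at 8.76 in shALKBH5 and 9.75 in shCtrl, and the 3' UTR peak of RPS10 was listed at -0.27. RPS14 followed with -0.53 in the 3' UTR, then RPL4 with -0.49 (FDR = 0.135) and RPL13 with -0.40. RPL28 and RPS23 had 3' UTR peaks at -0.38 each, and RPS3 one at -0.35 (FDR = 0.0575).

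The increased peaks were in RPL31 (2.03, FDR = 0.0851), RPL34 (1.52, FDR = 0.00263), RPL10 (0.67, 5' UTR), RPS29 (0.53, 5' UTR), RPS27L (0.36), RPS14 (0.28, 5' UTR) and RPS3A (0.10). The FDR was 0.0575 for the RPL10 peak and 0.171 for that of RPS14. RPL31 and RPL34 were also among the 6 members with the highest fold changes of mRNA. RPL34 had a decreased peak as well, in an exon (-0.18, FDR = 5.01e-09), as did RPL26, another of the 6, in its 3' UTR (-0.08, FDR = 7.94e-12). RPS29 was listed as increased, while its paired peaks in the 2 lists gave the opposite order. Its shALKBH5 peak at 9.55 overlapped shCtrl peaks at 30.6 (the pair) and at 3.62, so the direction is not settled here.

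Of the 30 members with a decreased peak, 21 were higher in mRNA, 6 lower and 3 not called, where 61 of all 79 tested members were higher and 8 lower. The 6 were RPS10, RPS23, RPL5, RPL3, RPL13A and RPS27L, with peak changes from -1.17 to -0.12. RPL39L, which was also lower, had no peak in the table. The peak changes and the mRNA changes share the input libraries and are therefore not independent.

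**Figure D4:**
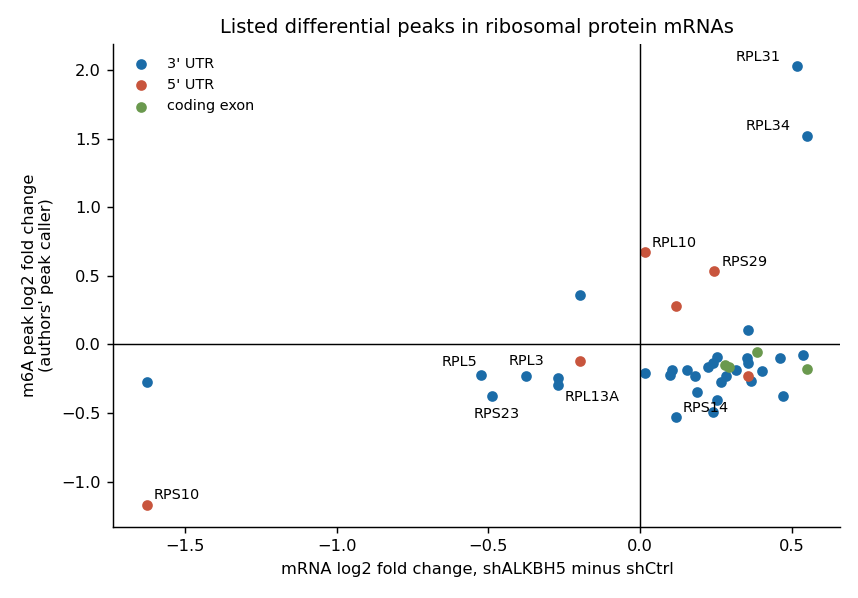
Log2 fold change of each of the 42 member peaks in the authors' differential table (vertical, from their caller) against the log2 fold change of the mRNA (horizontal), coloured by region. Most peaks lie in a cluster just below 0 among members with higher mRNA, RPL31 and RPL34 lie high, and RPS10 is alone at the lower left.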

How the data were processed

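The authors deposited gene expression as FPKM for 6 input libraries. They also deposited 1 list of m6A peaks per group with a fold enrichment ratio and, as scores, the log10 of p and FDR, and a table of differential peaks with log2 fold changes and p-values from their caller. The expression table's own fold change, p and q columns were not used. Aligner and caller settings were taken as given. The labels name the mouse build mm10, but the gene identifiers are human, and 74 of the 80 members' starts and 69 of their ends lay within 1000 bases of RefSeq GRCh38.p14. Coordinates of genes and peaks are as in the authors' files and were read as GRCh38.

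Genes averaging 0.5 FPKM or more were tested with limma 3.58.1 (R 4.3.3; lmFit and eBayes with trend, two-sided, Benjamini-Hochberg) on log2(FPKM + 0.1). This scale understates changes of low genes. edgeR, which the study used, needs counts and was not run. The fit was tested on simulated data, where it recovered the size of known changes but did not call every changed gene. The members and lists were chosen with earlier results of these data known. Named genes were ALKBH5, the 6 highest and 6 lowest fold changes, the paralogues with their parents, a fixed set of well-known members, the 3 highest and 3 lowest levels, the members with the most enriched and the most changed peaks, and from each further list the 2 highest and 2 lowest genes called. Other genes named were chosen after their values were seen. Same-numbered libraries were not paired, since their deviations correlated by at most 0.059. Alternatives were pseudocount, filter, scaling, trend, replicate block and leaving out each library. Some genes are counted but not reported here by name or drawn.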

Additional observations from a re-analysis of the deposited data

How the results depend on the processing

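Across 16 alternatives the count of higher members ran from 41 to 64, and the 8 lower members were lower in all of them. Leaving out 1 library at a time gave 58 to 64 higher and 8 to 10 lower members, a median of 0.25 to 0.30, a difference in share of 1.14 to 1.39 percentage points, 12 to 13 members more than 0.25 below the median and 2 to 6 above it. The 2 came without shCtrl replicate 1, against 5 with all libraries. The members' median of 0.28 became 0.24 with equal sums, 0.20 with median ratio scaling and 0.10 on the members' own sum, where 14 members were lower. The gap between the members' median and that of all tested genes, 0.19 in the fit reported, was 0.23 with no filter and 0.14 to 0.21 when a library was left out, the lowest without shCtrl replicate 2. With the replicate number as a block, 58 members were higher and 8 lower, and RPL23A and RPS14 were among those not called. The numbers did not pair the libraries, with correlations of 0.018, -0.046 and 0.059. RPL10 turned to -0.026 with equal sums, -0.061 with median ratio scaling, -0.16 on the members' own sum and -0.048 without shCtrl replicate 2, and RPS14 to -0.057 on the members' own sum. RPS2 and RPL35 were called lower without shCtrl replicate 2, RPL6 lower and RPS15, RPL8 and RPL36 higher without shCtrl replicate 1, and RPS25 higher without shCtrl replicate 3. An absolute log2 fold change above 1 left 3 members in the differential peak table, against 33, and 1022 of all 5210 listed genes. A fold enrichment of at least 2 with an FDR of at most 0.01 left 50 and 54 members with a peak, 62.0% and 67.1% of tested members against 79.5% and 78.9% of all tested genes. Of 608 values, for 38 of the named genes under each of the 16 alternatives, 580 kept their direction and side of the threshold. RPL6, RPL15, RPL35, RPL23A and RPS15, whose calls changed, are not among the 38. The cause of these shifts was not tested. Summing pseudogene entries was chosen after seeing the data.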
